A study of Mus musculus with 57 samples.

Results

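The genes described here were the 7 globin genes of the mouse alpha and beta clusters named Hbb-y, Hbb-bh1, Hbb-bs, Hbb-bt, Hba-x, Hba-a1 and Hba-a2, out of 56860 genes in the tables. They were chosen by name and not by a rule on measured values, but with earlier results of these data known. Bulk polyA RNA-seq was performed on 57 libraries from 129/Sv mouse embryos that were wild type (wt) or homozygous for a Hoxa5 null allele (Hoxa5-/-), in which a neomycin cassette interrupts the homeobox. Trachea, lung and diaphragm were taken at E15.5 (E for embryonic day) and lung also at E12.5, with 4 libraries per genotype in each. Somites, a trunk segment running from C3 to T2, were taken at E10.5 (4 wt and 3 Hoxa5-/- libraries) and E12.5 (4 and 4), and brown fat from between the shoulder blades (iBAT) at E18.5 (5 and 5). The labels name no other allele or agent, and the comparisons were between genotypes, between stages of lung and of somites, and between tissues at E15.5. Trachea, lung and diaphragm were read as 100-base single ends at one site, and somites and iBAT as 150-base paired ends at another, so that no test was made across these sets.

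Haemoglobin joins alpha-like and beta-like chains, and its genes sit in separate clusters in which the embryonic genes come first in the order of transcription. Primitive red cells, made in the yolk sac, begin with Hba-x (zeta), Hbb-bh1 and Hbb-y (epsilon-y) and shift toward the adult genes as they mature in the circulation. Definitive red cells, made in the fetal liver and shed without a nucleus, carry almost only the adult genes Hba-a1, Hba-a2, Hbb-bs and Hbb-bt. None of the sampled tissues makes red cells as its main task, and globin transcripts in such tissues can come with the blood they hold. The source of the globin RNA in these samples was not tested.

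The coding starts of the 7 genes are shown because they separate the embryonic genes from the adult ones and show why the paired adult copies cannot be separated in full. They are the first 90 coding bases in GRCm39, written 5′ to 3′, with capitals at bases that differ from Hbb-bs in the beta cluster or from Hba-a1 in the alpha cluster.
Hbb-y: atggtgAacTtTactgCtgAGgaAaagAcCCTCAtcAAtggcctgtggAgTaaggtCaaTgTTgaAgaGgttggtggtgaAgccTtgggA
Hbb-bh1: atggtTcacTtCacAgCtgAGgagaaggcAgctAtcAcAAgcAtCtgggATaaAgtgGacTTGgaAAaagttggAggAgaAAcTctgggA
Hbb-bs: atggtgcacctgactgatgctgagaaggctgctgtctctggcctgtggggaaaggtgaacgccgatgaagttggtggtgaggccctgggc
Hbb-bt: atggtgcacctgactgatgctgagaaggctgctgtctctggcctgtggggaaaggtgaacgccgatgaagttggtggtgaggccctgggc
Hba-x: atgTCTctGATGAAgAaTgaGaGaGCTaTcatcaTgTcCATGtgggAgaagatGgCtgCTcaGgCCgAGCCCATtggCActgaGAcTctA
Hba-a1: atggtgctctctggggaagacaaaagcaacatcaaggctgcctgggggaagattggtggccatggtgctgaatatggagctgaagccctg
Hba-a2: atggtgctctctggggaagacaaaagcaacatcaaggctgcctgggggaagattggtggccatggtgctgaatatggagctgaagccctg

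Hbb-y differed from Hbb-bs at 26 of these 90 bases, Hbb-bh1 at 29, and Hba-x from Hba-a1 at 44, whereas Hbb-bt was identical to Hbb-bs and Hba-a2 to Hba-a1. Over all 441 coding bases, Hbb-y was 74.4% and Hbb-bh1 73.9% identical to Hbb-bs, and over 426 coding bases Hba-x was 61.7% identical to Hba-a1. The adult copies differed at a single coding base each, C417T from Hbb-bs to Hbb-bt and C381T from Hba-a1 to Hba-a2, counted from the A of the start codon. In GRCm39 the beta-like genes lie on the minus strand of chromosome 7, in the order of transcription Hbb-y (ENSMUSG00000052187.5, chr7:103500956-103502423), Hbb-bh1 (ENSMUSG00000052217.7, chr7:103490844-103492371), Hbb-bs (ENSMUSG00000052305.7, chr7:103475741-103477303) and Hbb-bt (ENSMUSG00000073940.4, chr7:103461731-103463203). The alpha-like genes lie on the plus strand of chromosome 11, in the order Hba-x (ENSMUSG00000055609.9, chr11:32226400-32228116), Hba-a1 (ENSMUSG00000069919.8, chr11:32233511-32234465) and Hba-a2 (ENSMUSG00000069917.8, chr11:32246489-32247298). Each gene has 3 exons.

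Of the 100-base windows in the transcripts, 62.6% of those in Hbb-bs also occurred in Hbb-bt, and 54.8% of those in Hbb-bt in Hbb-bs. The shares were 56.5% for Hba-a1 and 74.5% for Hba-a2, and at 150 bases they were 58.7%, 50.7%, 48.4% and 65.7% for Hbb-bs, Hbb-bt, Hba-a1 and Hba-a2. The 3 embryonic genes had no shared window at either length. Per the study's methods, the analysis kept reads that mapped to a single place in the genome. Single-end reads that lie wholly in shared sequence are then not counted, while TPM divides by the whole counted length. TPM then understates the adult copies against the embryonic genes and puts the shares of the embryonic genes too high. For the paired-end sets, how pairs with a single end in shared sequence were counted is not stated, so the size of this is not known there. Shares were therefore also computed from counts per unshared window, and the split between the adult copies stays uncertain. The 129 strain is also known to carry another beta-globin haplotype than the C57BL/6 reference, and its part in the Hbb-bs and Hbb-bt counts was not tested.

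The libraries held 18369905 to 72991481 counted reads. Levels are given in TPM, a value scaled to transcript length and to the total of each library, and the fits used the counts. Hoxa5 was at 44.1 to 304 TPM in wt and 9.84 to 112 TPM in Hoxa5-/- libraries, with no overlap of genotypes within any tissue and stage. Transcripts of the disrupted allele were still counted. Summed lung markers were at 1461 to 9005 TPM in E15.5 lung, diaphragm markers at 3361 to 4941 TPM in diaphragm and iBAT markers at 8276 to 13666 TPM in iBAT, but the trachea list was also at 1111 to 1777 TPM in E12.5 somites, against 819.6 to 3065 TPM in trachea. The diaphragm list was at 1153 to 1556 TPM in E12.5 somites and at 601 TPM in Hoxa5-/- trachea replicate 3, and the lung list at 487 TPM in wt trachea replicate 3 and 400.4 TPM in wt diaphragm replicate 3, and their part in the results was not tested. In these bulk samples, fewer red cells and less globin RNA per red cell cannot be told apart.

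One library stood far from its group in globin content. The 7 genes took 3.03% of all counts in Hoxa5-/- E12.5 lung replicate 1, against 0.382% to 0.510% in the other 3 libraries of the group and 0.0809% to 0.794% in all other libraries. Its 7 globins were each at least 4.87 times the next library of its group, while its Hbb-y and Hbb-bh1 shares of beta-like TPM lay within the range of the other E12.5 lung libraries. Its Hba-x share of alpha-like TPM, 57.9%, was the lowest of E12.5 lung. Its summed red cell membrane genes were at 1016 TPM, against 337 to 386 TPM in the other 3, its haem synthesis genes at 926 against 513 to 534 TPM, and its macrophage markers at 44.2 against 92.3 to 107 TPM. Results that rest on this library are given with and without it. Wt diaphragm replicate 3 and Hoxa5-/- diaphragm replicates 3 and 4 also held more globin than the rest of their groups, as described with the diaphragm below.

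The embryonic beta-like gene Hbb-y was the most abundant of the 7 globins in every E10.5 and E12.5 library and was lowest at E18.5. In wt E10.5 somites it was at 15234, 8844, 7505 and 15785 TPM, and in Hoxa5-/- E10.5 somites at 9107, 9237 and 7018 TPM. At E12.5 it was at 7771, 9006, 10829 and 11855 TPM in wt and 15979, 8904, 12486 and 11287 TPM in Hoxa5-/- somites. In E12.5 lung it was at 11746, 22819, 13201 and 20028 TPM in wt and 90915, 16021, 11935 and 17495 TPM in Hoxa5-/- libraries. Genotypes overlapped in each of these 3 settings, and the highest value of all came from the lung library named above.

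At E15.5 Hbb-y varied far more between libraries of a group. It was at 213, 79.8, 26.3 and 509 TPM in wt and 183, 433, 54.6 and 942 TPM in Hoxa5-/- trachea. In E15.5 lung it was at 806, 392, 97.3 and 1602 TPM in wt and 665, 2338, 186 and 1722 TPM in Hoxa5-/- libraries, and in diaphragm at 95.3, 462, 902 and 79.6 TPM and 209.5, 819.6, 801 and 243 TPM. Replicate 3 was lowest in trachea and in lung in both genotypes, whereas in wt diaphragm it was highest. In E18.5 iBAT Hbb-y was at 3.59, 1.35, 3.34, 2.19 and 1.12 TPM in wt and 1.19, 6.296, 1.90, 2.22 and 3.80 TPM in Hoxa5-/- libraries, below every library of the earlier stages.

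The wt means of Hbb-y, with the SD over libraries, ran from 16948 ± 5325 TPM in E12.5 lung through 11842 ± 4276 in E10.5 somites and 9865 ± 1827 in E12.5 somites to 724 ± 653 in E15.5 lung, 385 ± 388 in diaphragm, 207 ± 216 in trachea and 2.32 ± 1.12 in iBAT. Each of the first 3 overlapped its neighbour in range, as did each of the 3 E15.5 tissues, so that only the steps from E12.5 to E15.5 and from E15.5 to E18.5 separated neighbours. These levels set the differently sequenced library sets side by side and carry no test.

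Hbb-bh1, the other embryonic beta-like gene, was highest in E10.5 somites. It was at 9539, 5764, 4344 and 9323 TPM in wt E10.5 somites and at 222, 226, 413 and 391 TPM in wt E12.5 somites. In wt E12.5 lung it was at 2229.6, 4120.2, 1534 and 2959.5 TPM, several times the level in somites of the same day, and in wt E15.5 lung at 18.1, 14.1, 4.29 and 27.02 TPM. Across E15.5 libraries it lay at 1.39 to 39.6 TPM and across iBAT libraries at 0 to 1.03 TPM. In iBAT it stood at 0 in 1 library of each genotype and was too low in the group means to be tested.

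Hba-x, the embryonic alpha-like gene, was at 5431, 2997, 2978 and 5133 TPM in wt E10.5 somites and at 746, 950.2, 1187 and 1230.2 TPM in wt E12.5 somites. In wt lung it was at 5062, 9264, 4059.7 and 7073 TPM at E12.5 and 171, 103, 37.4 and 245 TPM at E15.5. No library of the later lung or somite stage reached the lowest of the earlier stage. Across all E15.5 libraries it lay at 11.5 to 358 TPM and in iBAT at 0.261 to 2.75 TPM.

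The adult beta-like genes moved the other way. Hbb-bs was at 50.9, 25.2, 27.8 and 50.2 TPM in wt E10.5 somites, 1351, 1827, 1585 and 1594 TPM in wt E12.5 somites and 349, 583, 559.9 and 646 TPM in wt E12.5 lung. At E15.5 it was at 6430.0, 6804, 10952 and 7976 TPM in wt lung, 3589, 3712, 7809 and 4445 TPM in wt trachea and 4998, 5701, 14020.0 and 4348 TPM in wt diaphragm. In iBAT it was at 6363, 7384, 10624, 7081 and 5632 TPM in wt and 7735, 13202, 11064, 3671 and 9113 TPM in Hoxa5-/- libraries. The wt groups at E15.5 and E18.5 overlapped one another in range, and each lay above every wt library of E10.5 and E12.5.

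Hbb-bt followed Hbb-bs at a lower level, from 5.01 to 15.7 TPM in E10.5 somites to 295 to 2747 TPM at E15.5 and 384 to 1764 TPM in iBAT. The adult alpha-like genes changed less over the series. Hba-a1 was at 1729, 1025, 814 and 1627 TPM in wt E10.5 somites, already far above Hbb-bs in the same libraries, and at 2083, 2621, 2423 and 2299 TPM in wt E12.5 somites. It was at 1344, 2289, 1552 and 2213 TPM in wt E12.5 lung and 3214, 3107, 4891 and 3847 TPM in wt E15.5 lung. Hba-a2 ran from 130.1 to 260.2 TPM in E10.5 somites to 721 to 5078 TPM at E15.5 and 579.6 to 1914 TPM in iBAT.

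**Figure D1:**
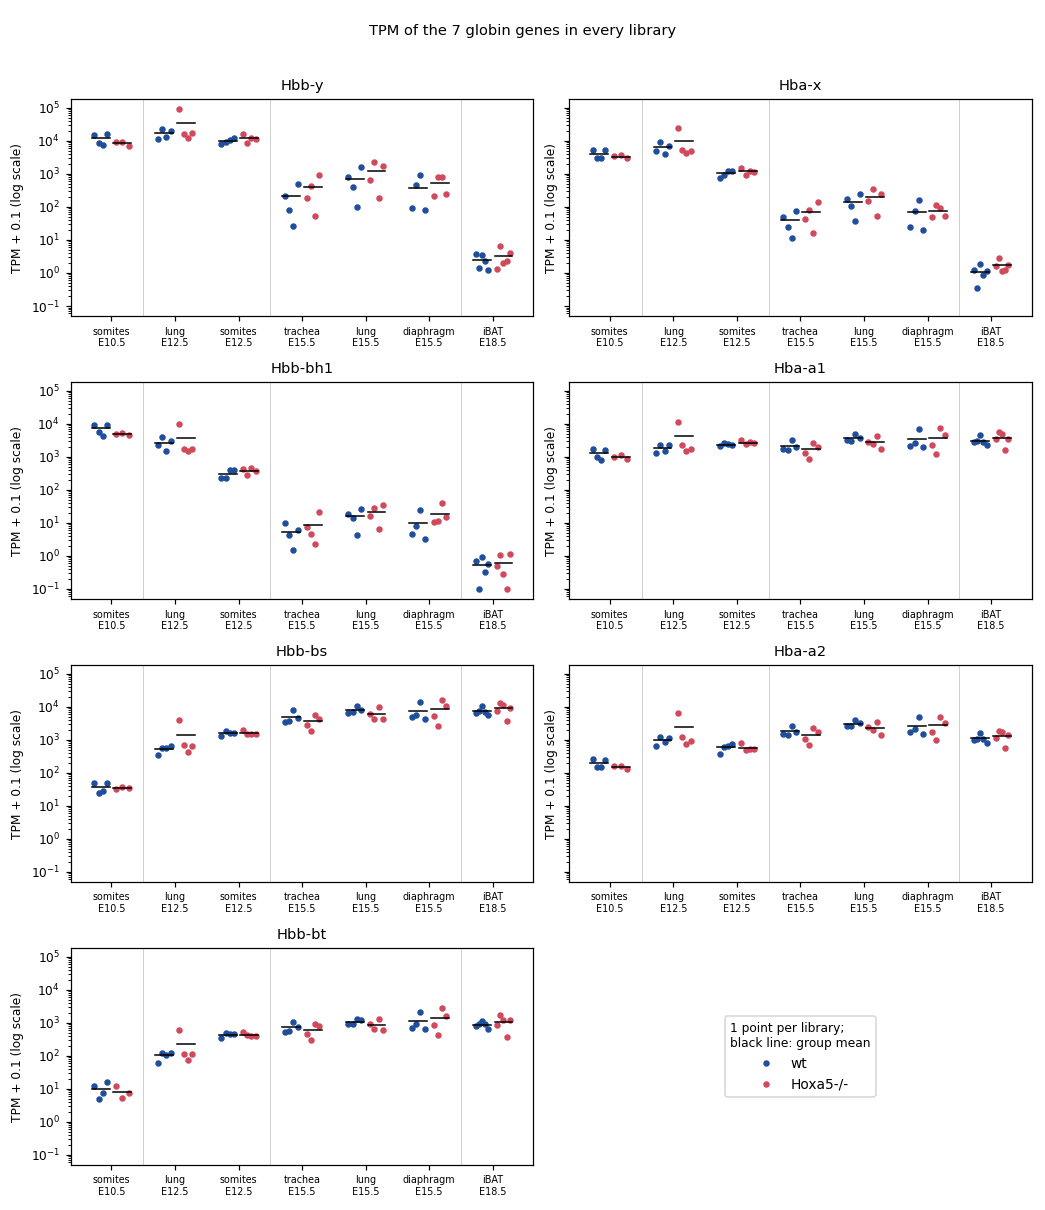
Level of each of the 7 globin genes in every library, as TPM + 0.1 on a log axis, with wt and Hoxa5-/- groups side by side in order of embryonic day and a line at each group mean. The 3 embryonic genes drop from E10.5 and E12.5 to E15.5 and again to E18.5, the adult beta-like genes rise from E10.5 to E15.5, and Hoxa5-/- E12.5 lung replicate 1 lies above its group for each gene.

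Shares of the summed TPM of each cluster do not depend on the total globin level of a library. Hbb-y and Hbb-bh1 together made up 99.6 to 99.8% of beta-like globin TPM in E10.5 somites, 95.6 to 97.5% in E12.5 lung and 80.0 to 87.3% in E12.5 somites. The E12.5 tissues did not overlap, lung lying above somites, though these came from differently sequenced sets. At E15.5 the same share ran from 0.310 to 31.8%, and in iBAT from 0.0163 to 0.0581%.

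At E15.5 the libraries of a group differed several-fold in embryonic share. In wt lung the embryonic beta-like share was 10.1, 5.01, 0.821 and 15.1%, and in Hoxa5-/- lung 8.70, 31.8, 1.69 and 26.6%. In trachea it was 5.11, 1.92, 0.310 and 9.03% in wt and 5.51, 17.03, 0.835 and 15.9% in Hoxa5-/- libraries. In diaphragm it was 1.72, 6.63, 5.41 and 1.63% in wt and 3.43, 21.4, 4.18 and 2.12% in Hoxa5-/- libraries. Replicate 3 was lowest and replicate 2 or 4 highest in trachea and lung of both genotypes, and the genotypes overlapped in every tissue.

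At E12.5 the Hba-x share of TPM in every lung library lay above that in every somite library, though these came from differently sequenced sets. The adult alpha copies share more of their windows at the 100 bases of the lung reads than at the 150 bases of the somite reads. The part of this in the difference was not tested.

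**Figure D2:**
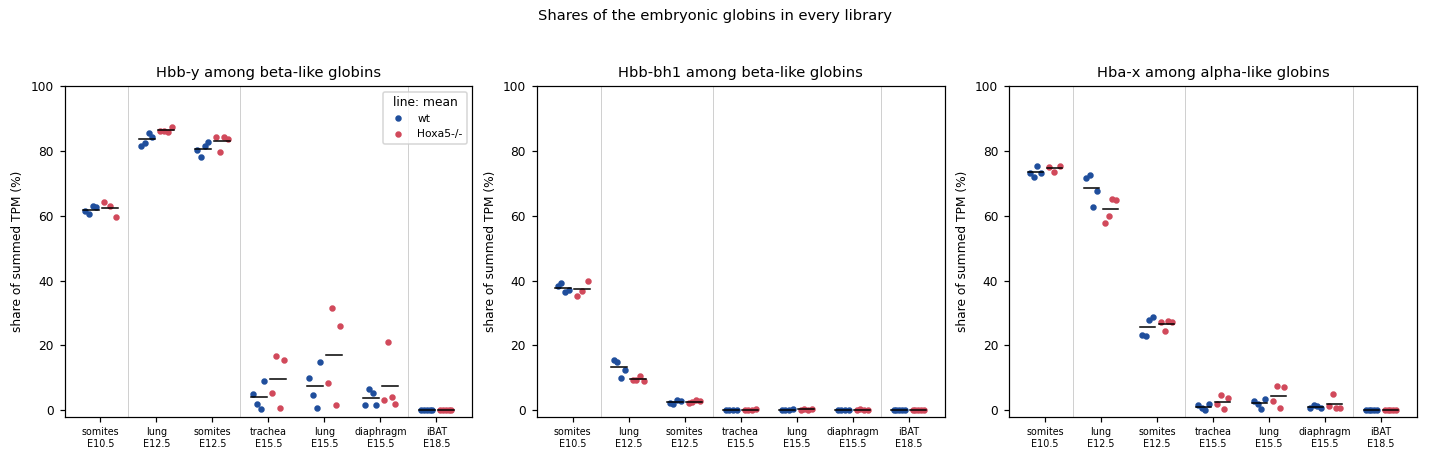
Share of Hbb-y and of Hbb-bh1 in beta-like TPM and of Hba-x in alpha-like TPM, in percent, for every library, with a line at each group mean. Hbb-bh1 is near 38% in E10.5 somites and under 16% everywhere else, the Hbb-y share of TPM is highest in E12.5 libraries (in wt somites its rise is not seen per unshared window), and at E15.5 the Hbb-y points of 1 group spread widely.

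The stage comparisons asked how globin expression differed between 2 days in the same tissue. In wt lung all 7 genes passed the test (edgeR quasi-likelihood test, with a Benjamini-Hochberg adjusted p below 0.05 and a minimum fold change of 1.5), against 24.6% of all genes tested. From E12.5 to E15.5, Hbb-bh1 fell by 7.47 ± 0.47 on the log2 scale (SE, adjusted p = 1.8e-06), Hba-x fell by 5.56 ± 0.55 and Hbb-y fell by 4.59 ± 0.72. Hbb-bs rose by 3.88 ± 0.23 and Hbb-bt by 3.36 ± 0.22, and the adult alpha genes rose less, Hba-a1 by 0.99 ± 0.20 (adjusted p = 0.00211) and Hba-a2 by 1.63 ± 0.20 (adjusted p = 0.000105) in the edgeR test. All 7 were still called without any single library, and with DESeq2.

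In Hoxa5-/- lung 5 of 7 members were called, against 20% of all genes tested. Hbb-y fell by 4.74 ± 0.98, Hbb-bh1 fell by 7.48 ± 0.95 and Hba-x fell by 5.58 ± 0.87 on the log2 scale, while Hbb-bs rose by 2.05 ± 0.69 and Hbb-bt by 1.91 ± 0.65. The log2 differences of Hba-a1, -0.65 ± 0.63 (adjusted p = 0.460), and Hba-a2, -0.12 ± 0.66 (adjusted p = 0.906), did not pass in the edgeR test. Without the globin-rich replicate 1 of E12.5 lung all 7 were called, with Hba-a1 at 0.73 ± 0.21 and Hba-a2 at 1.33 ± 0.23, Hbb-bs at 3.49 ± 0.29 and Hbb-y at -3.44 ± 0.72. Without E12.5 replicate 2, 3 or 4, or E15.5 replicate 1, 3 or 4, only the 3 embryonic genes were called, and without E15.5 replicate 2 these and Hbb-bs, 4 in all. DESeq2 gave an adjusted p for 2 members and called both.

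In wt somites from E10.5 to E12.5, 6 of 7 members were called, against 42.6% of all genes tested. Hbb-bh1 fell by 4.61 ± 0.31 and Hba-x fell by 2.08 ± 0.23 on the log2 scale. Hbb-bs rose by 5.30 ± 0.23, Hbb-bt by 5.41 ± 0.25, Hba-a1 by 0.78 ± 0.21 and Hba-a2 by 1.48 ± 0.23. The log2 difference of Hbb-y was -0.34 ± 0.23 (adjusted p = 0.218) in the edgeR test, which did not pass, while its neighbour Hbb-bh1 was called lower.

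In Hoxa5-/- somites the same 6 members were called, against 36.9% of all genes tested. Hbb-bh1 fell by 3.73 ± 0.15, Hba-x fell by 1.49 ± 0.14, Hbb-bs rose by 5.52 ± 0.14, Hbb-bt by 5.74 ± 0.22, Hba-a1 by 1.44 ± 0.12 and Hba-a2 by 1.93 ± 0.16 on the log2 scale. The log2 difference of Hbb-y was 0.51 ± 0.18 (adjusted p = 0.0258) in the edgeR test, under the fold limit. Without E10.5 replicate 2 it was 0.59 ± 0.21 and without E12.5 replicate 2 0.64 ± 0.15, and in both cases it was called and the count was 7.

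On the shares, exact permutation tests over libraries (two-sided, 12 stage tests adjusted together) passed for 9 of 12, and the members of a cluster did not change in step. In wt lung, the Hbb-y share fell from 83.6% ± 1.81 to 7.59% ± 6.11, the Hbb-bh1 share from 13.2% ± 2.53 to 0.1702% ± 0.0958 and the Hba-x share from 68.7% ± 4.52 to 2.11% ± 1.30 (exact p = 0.0286 each, the smallest that 4 against 4 libraries allow, adjusted p = 0.0381). In wt somites the Hbb-bh1 share fell from 37.8% ± 1.29 to 2.52% ± 0.503 and the Hba-x share from 73.5% ± 1.49 to 25.7% ± 3.07, while the Hbb-y share of TPM rose from 61.9% ± 1.26 to 80.6% ± 2.04, with the same exact p but not on the unshared-window scale given below. In Hoxa5-/- lung the Hbb-y share fell from 86.4% ± 0.689 to 16.9% ± 14.1, the Hbb-bh1 share from 9.60% ± 0.722 to 0.293% ± 0.201 and the Hba-x share from 62.0% ± 3.61 to 4.54% ± 3.40, again without overlap of the stages. The 3 Hoxa5-/- somite tests had 3 against 4 libraries and could not go below an exact p of 0.0571, which each gave, with group means of 62.4% and 83.0% for Hbb-y, 37.3% and 2.64% for Hbb-bh1 and 74.7% and 26.7% for Hba-x.

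The shares depended on how the adult copies were counted. With each gene's counts divided by the number of its unshared windows of a read's length, in place of TPM, the Hbb-y share in wt somites was 61.4% at E10.5 and 62.4% at E12.5, and that test no longer passed (exact p = 0.657). The other 8 still passed (exact p = 0.0286, adjusted p = 0.0429). On that scale the Hbb-y share of wt E15.5 lung was 2.63% and the Hba-x share of wt E12.5 lung 42.4%. This scale takes account of the single-place reads kept in the study, for whole reads that match the reference and are placed on their own. A read in shared sequence can also be placed by the other end of its pair. In the paired-end sets this scale can thus put the adult copies too high, and whether the Hbb-y share rose in wt somites stays uncertain.

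**Figure D3:**
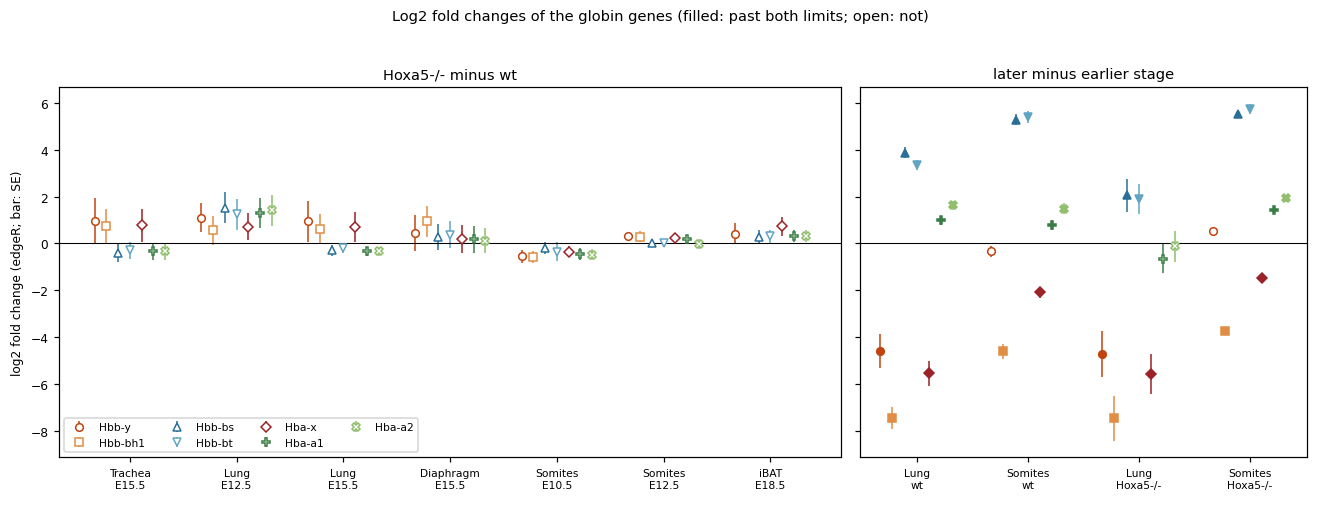
Log2 fold change with its SE for each globin gene in the genotype comparisons (left) and stage comparisons (right), from the edgeR fits, with filled symbols for called genes. The embryonic and adult beta-like genes lie on opposite sides of 0 between E12.5 and E15.5 in lung, only Hbb-y lies near 0 in somites, and no genotype comparison has a gene past the test.

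The tissue comparisons were made among wt libraries of E15.5, the day at which these 3 organs were sampled side by side. Between trachea and lung, 4 of 7 members were called, against 30.2% of all genes tested, each higher in lung, and DESeq2 called 5. These were Hbb-bs with a log2 difference of 0.75 ± 0.27 (adjusted p = 0.0437), Hba-a1 with 0.85 ± 0.23 (adjusted p = 0.0133), Hba-a2 with 0.80 ± 0.22 (adjusted p = 0.0139) and Hba-x with 1.83 ± 0.65 (adjusted p = 0.0436) in the edgeR test. The other 3 also lay above 0, Hbb-y at 1.86 ± 0.96 (adjusted p = 0.138), Hbb-bh1 at 1.63 ± 0.63 (adjusted p = 0.0560) and Hbb-bt at 0.58 ± 0.23 (adjusted p = 0.0632). Hba-a1 and Hba-a2 were called without any single library, but Hba-x was lost without trachea replicate 1, 2 or 3 or lung replicate 1, 2 or 4, and Hbb-bs without any library except trachea replicate 3. The count was 2 without trachea replicate 2 or lung replicate 1, 2 or 4, and 3 without trachea replicate 1. These fits leave replicate number out. With it as a block, more members were called for this pair and for diaphragm against trachea, as given in the last section.

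Between trachea and diaphragm no member was called by edgeR or by DESeq2, against 32.5% of all genes tested, and 1 had an unadjusted edgeR p under 0.05. The log2 differences, diaphragm minus trachea, ran from 0.80 ± 0.38 for Hba-a2 to 1.19 ± 0.71 for Hbb-bh1. Without trachea replicate 3, the wt trachea library richest in adult globin and in lung markers, Hbb-bs at 1.18 ± 0.38 and Hba-a1 at 1.25 ± 0.42 were called, 2 in all. Between lung and diaphragm no member was called by either tool, against 36.4% of all genes tested, and none had an unadjusted p under 0.05. Its log2 differences ran from -0.72 ± 0.69 for Hba-x to 0.32 ± 0.35 for Hbb-bt. None of 9 share tests between these tissues passed, the smallest exact p being 0.171 for Hba-x between lung and diaphragm (adjusted p = 0.557). Like the fits, these tests left replicate number out, and in wt lung alone the Hbb-y share ran from 0.786 to 14.9%. They cannot show that the tissues had equal shares.

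Libraries of trachea and lung with the same replicate number and genotype had nearly the same order of Hbb-y share. Over the 8 pairs, the log2 Hbb-y share had Pearson's r = 0.995 (exact permutation p = 9.92e-05, adjusted over 3 tissue pairs 0.000298) and Spearman's rho = 0.976 (exact permutation p = 0.000397, adjusted 0.00119). Without the 2 pairs farthest from the median in trachea, r was 0.983, and the order of the 4 replicates was the same in both tissues within each genotype. The share in lung was above that in trachea in all 8 pairs. Diaphragm did not follow either tissue, with r = -0.08 and rho = -0.14 against trachea (exact permutation p = 0.804 and 0.752, adjusted 0.887 and 0.752, r = 0.09 without 2 pairs). Against lung r was -0.03 and rho -0.19 (exact permutation p = 0.887 and 0.665, adjusted 0.887 and 0.752, r = 0.20 without 2 pairs). The labels do not say whether same-numbered libraries came from the same embryo, and this comparison was chosen after the shares had been seen.

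**Figure D4:**
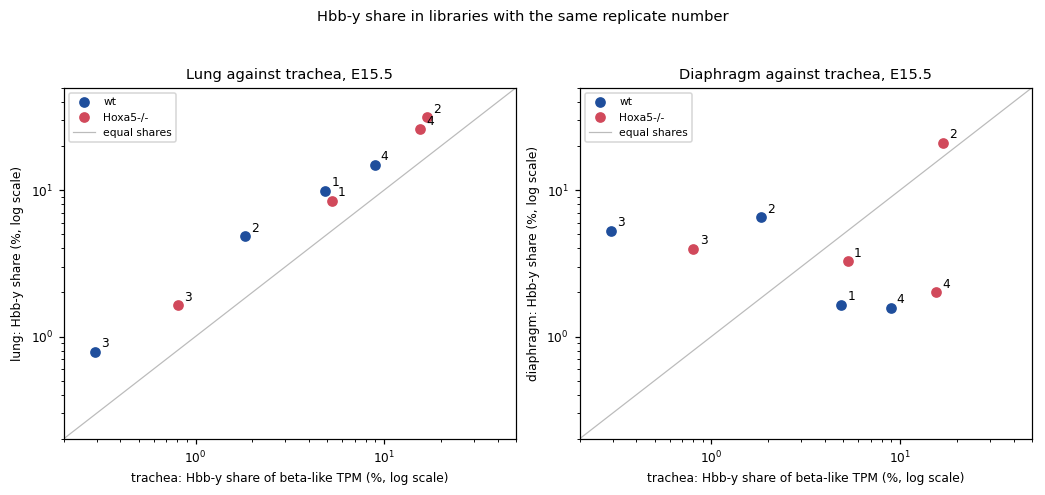
Hbb-y share of beta-like TPM (%, log axes) in lung and in diaphragm against trachea at E15.5, each point a pair of libraries with the same genotype and replicate number, shown beside it. The lung points rise with trachea and all lie above the line of equal shares, whereas the diaphragm points show no such order.

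Hba-x and Hbb-y, which lie on different chromosomes, varied together within groups. Ranking the libraries of a group by Hbb-y share or by Hba-x share gave the same order in 5 of the 6 E15.5 groups and the same top library in all 6, but in only 7 of all 14 groups the same order. Over deviations from the group means in trachea, lung and diaphragm (32 libraries, log2(TPM + 1), described without a test), Hbb-y had r = 0.986 with Hba-x and 0.874 with Hbb-bh1, but 0.06 with Hbb-bs. Hbb-bt had r = 0.993 with Hbb-bs, 0.985 with Hba-a1 and 0.987 with Hba-a2. Pooled over these tissues, Hbb-y thus varied separately from the adult genes within groups, while Hbb-bh1 had r = 0.401 with Hbb-bt. Within E12.5 lung Hbb-y and Hbb-bs did not separate in this way. In its Hoxa5-/- group, with the globin-rich replicate 1, the SD of log2 Hbb-y over Hbb-bs was 0.158, against 1.32 for Hbb-y and 1.43 for Hbb-bs. In its wt group the SD of the ratio was 0.307, against 0.462 and 0.396. Within groups of somites and iBAT the embryonic and adult genes did not separate either. There Hbb-y had r = 0.808 with Hba-x, 0.763 with Hbb-bh1, 0.569 with Hbb-bs and 0.655 with Hba-a2 over 25 libraries. The points share libraries and depth, and the adult copies share reads.

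The spread of ratios was also compared. Within the 14 groups, the SD of log2 Hba-a1 over Hbb-bs had a median of 0.09, against 0.53 for the level of Hbb-bs and 0.48 for that of Hba-a1. For Hba-x over Hbb-y the median SD was 0.38, against 0.998 for the level of Hbb-y and 0.81 for that of Hba-x. For Hbb-y over Hbb-bs it was 0.77, with a highest group value of 2.22. By these medians, adult alpha and beta genes kept a steadier ratio from library to library than embryonic and adult genes of the beta cluster. The contrast was largest at E15.5, where the SD of Hbb-y over Hbb-bs was 1.13 to 2.22. For Hba-a1 over Hbb-bs against Hbb-y over Hbb-bs, the order was reversed in wt E10.5 somites, at 0.199 against 0.158. It was also reversed in Hoxa5-/- E12.5 lung, at 0.164 against 0.158, and in no other group.

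On the TPM scale, the summed alpha-like level was below the summed beta-like level in all 57 libraries, at a ratio of 0.278 to 0.749. The ratio was 0.278 to 0.361 in somites, 0.376 to 0.491 in E12.5 lung, 0.520 to 0.749 at E15.5 and 0.479 to 0.549 in iBAT. Within Hoxa5-/- E15.5 lung, replicate 4 was at 0.520, against 0.644 to 0.691 in the other 3. Per the study's supplement, this library had the lowest percentages of reads mapped and assigned to genes in E15.5 lung. The part of this in its values was not tested. In diaphragm the genotypes did not overlap, at 0.678, 0.691, 0.714 and 0.685 in wt and 0.637, 0.589, 0.619 and 0.658 in Hoxa5-/- libraries, a difference that was seen among 7 settings and not tested. Hba-a2 made up 32.7 to 36.4% of adult alpha TPM in E12.5 lung and 41.1 to 46.3% in all E15.5 libraries. In the paired-end set it made up 12.4 to 15.8% in E10.5 somites, 15.3 to 24.5% in E12.5 somites and 24.1 to 27.7% in iBAT. The copies share many of their windows, so these values describe the counting as well as the genes.

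Hbb-bt made up 10.8 to 17.2% of adult beta TPM in trachea, lung and diaphragm, 12.2 to 26.3% in E10.5 somites, 20.3 to 22.8% in E12.5 somites and 9.48 to 11.8% in iBAT. In E10.5 somites the adult beta genes were scarce, with 27 to 75 counts for Hbb-bt, and the share varied accordingly.

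The genotype comparisons asked whether loss of Hoxa5 went with a difference in globin expression. No member was called in any of the 7 settings by edgeR or by DESeq2. The shares of all genes tested that were called were 0.0156% in trachea, 0.0798% in E12.5 lung, 0.124% in E15.5 lung, 0.594% in diaphragm, 0.0215% in E10.5 somites, 0.00529% in E12.5 somites and 0.00657% in iBAT, so that a count of 0 among 7 is near the background. With an unadjusted edgeR p under 0.05 there were 1 member in E12.5 lung, 1 in E10.5 somites and 0 in the other 5 settings. DESeq2 gave no adjusted p for 5 members in E12.5 lung.

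In E12.5 lung the member with the smallest p was Hbb-bs, with a log2 difference, Hoxa5-/- minus wt, of 1.53 ± 0.66 (adjusted p = 0.611) in the edgeR test, and Hbb-y was at 1.10 ± 0.62 (adjusted p = 0.680). Without Hoxa5-/- replicate 1 these were 0.09 ± 0.20 and -0.21 ± 0.23, so that the direction of Hbb-y turned. Without it the largest difference was that of Hbb-bh1 at -0.75 ± 0.28 (edgeR adjusted p = 0.443). In E15.5 lung Hbb-y was at 0.95 ± 0.88 (adjusted p = 0.923) and Hbb-bs at -0.30 ± 0.24 (adjusted p = 0.916), and in trachea at 0.97 ± 0.98 (adjusted p = 0.828) and -0.41 ± 0.38 (adjusted p = 0.819) in the edgeR test. In both organs the embryonic genes were fitted above 0 and the adult genes below, with an SE close to or above most of the differences. Libraries of these organs with the same replicate number had nearly the same order of Hbb-y share, so the organs do not count as independent results.

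In diaphragm the 7 log2 differences ran from 0.12 ± 0.54 for Hba-a2 to 0.95 ± 0.66 for Hbb-bh1. In E10.5 somites all 7 were below 0, from -0.59 ± 0.26 (adjusted p = 0.391) for Hbb-bh1 to -0.20 ± 0.26 (adjusted p = 0.702) for Hbb-bs in the edgeR test. Without wt replicate 3, the wt library with the least Hbb-y, Hbb-y at -0.72 ± 0.20, Hbb-bh1 at -0.78 ± 0.17 and Hba-a1 at -0.63 ± 0.18 were called, 3 in all, with 3 libraries left in each group, while calls over all genes went from 4 to 386 of 18664 tested. In E12.5 somites the differences ran from -0.02 ± 0.20 for Hba-a2 to 0.31 ± 0.18 for Hbb-y, and in iBAT from 0.29 ± 0.27 for Hbb-bs to 0.73 ± 0.40 for Hba-x over the 6 members tested.

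None of 21 share tests by genotype passed after adjustment. The smallest exact permutation p was 0.0286, for Hbb-y in E12.5 lung, where the shares were 81.7, 82.5, 85.7 and 84.3% in wt and 86.1, 86.3, 85.7 and 87.4% in Hoxa5-/- libraries (two-sided, adjusted p = 0.400). On the unshared-window scale the groups overlapped, with means of 78.2% and 79.6% (exact permutation p = 0.0571). In TPM the Hoxa5-/- libraries were all above the wt ones, the highest wt value being 85.70% and the lowest Hoxa5-/- value 85.75%. The Hbb-bh1 share there was 15.501, 14.9, 9.96 and 12.46% in wt and 9.48, 9.38, 10.6 and 8.94% in Hoxa5-/- libraries (exact p = 0.0571, adjusted p = 0.400). The shares sum within a cluster, so these are not independent results, and on the log2 ratio of embryonic to adult TPM the Hbb-y difference had the opposite sign, -0.28.

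At E15.5 the mean Hbb-y share was 3.98 ± 3.81% in wt and 9.62 ± 7.82% in Hoxa5-/- trachea (SD, n = 4 each, exact permutation p = 0.257, adjusted p = 0.554). It was 7.59 ± 6.11% and 16.9 ± 14.1% in lung (exact p = 0.314) and 3.75 ± 2.53% and 7.59 ± 9.04% in diaphragm (exact p = 0.657). The differences between genotypes were smaller than the SD within the Hoxa5-/- groups, and in diaphragm without Hoxa5-/- replicate 2 the difference turned to -0.67 percentage points. The tests that the genotype effect differed between stages called no member by edgeR or DESeq2, against 0.0267% of all genes in lung and 0.0147% in somites at an adjusted p under 0.05, with 3 members at an unadjusted edgeR p under 0.05 in each. Without wt E10.5 replicate 3, 3 were called in somites, Hbb-y at 1.04 ± 0.29, Hbb-bh1 at 1.09 ± 0.32 and Hba-a1 at 0.85 ± 0.22 on the log2 scale, higher in Hoxa5-/- relative to wt at E12.5 than at E10.5, while calls over all genes went from 3 to 2580 of 20486 tested.

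The other genes that red cells need were taken as 5 lists, for haem synthesis, iron supply and globin handling, the red cell membrane, erythroid regulators and regulators of globin switching. None of their members was called in any genotype comparison or interaction by edgeR or DESeq2, with 1 to 5 of 38 to 54 tested at an unadjusted edgeR p under 0.05 in the genotype comparisons, and 3 and 7 of 53 in the interactions of lung and somites. Slc4a1, the gene of the band 3 anion exchanger, had a log2 difference of 0.76 ± 0.54 in E12.5 lung (edgeR adjusted p = 0.746) and of 0.75 ± 1.01 in diaphragm (edgeR adjusted p = 0.792).

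Over the lung stages many erythroid genes fell while the adult globin genes rose. In wt lung from E12.5 to E15.5, 11 of 15 red cell membrane genes tested and 8 of 12 erythroid regulators fell and none rose. Of all genes 24.6% were called, and 1662 of 18158 tested were lower. The lists had median log2 differences of -2.06 and -1.64, against -0.01 over all genes. Of the listed genes, Hemgn, a nuclear regulator of red cell precursors, fell by 3.99 on the log2 scale and the master regulator Klf1 fell by 2.72. Gata1 fell by 2.30, and Rhag, the gene of the Rh-associated glycoprotein, fell by 3.60. None of 9 haem synthesis genes was called by edgeR or DESeq2 in wt lung, though 6 had an unadjusted edgeR p under 0.05, with log2 differences from -0.42 to 0.19. Hoxa5-/- lung gave 12 of 15 and 9 of 12 lower.

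Of the switching list, Lin28b, whose RNA-binding protein marks early development, fell by 3.04, Igf2bp1 fell by 1.68 and Bcl11a, a repressor of embryonic globin genes, fell by 1.32 on the log2 scale in wt lung, and Myb rose by 2.06. Each of these genes is also used by cells other than red cells.

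In wt somites from E10.5 to E12.5, 11 of 15 membrane genes tested fell and 3 rose, and 9 of 12 erythroid regulators fell, with median log2 differences of -1.36 and -1.34, against -0.04 over all genes, of which 42.6% were called. Hemgn fell by 5.36, Klf1 fell by 4.43, Rhag fell by 3.28 and the transferrin receptor gene Tfrc fell by 1.33 on the log2 scale. Tmod1, which also caps actin filaments in muscle, rose by 2.12. Lin28b fell by 3.74, while Sox6, a partner of Bcl11a that is also active in cartilage and muscle, rose by 1.26 and Klf2 by 1.66. Hoxa5-/- somites had 11 of 15 membrane genes lower and 3 higher and 7 of 11 regulators lower, where 36.9% of all genes were called.

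In diaphragm other erythroid genes were called higher than in trachea and lung, where no globin gene was. Against wt trachea, 12 of 15 membrane genes and 11 of 13 erythroid regulators tested were called higher in wt diaphragm and none lower. Of all genes 32.5% were called, and 2791 of 19730 tested were higher. The lists had median log2 differences of 4.15 and 3.46, against -0.04 over all genes, beside globin log2 differences of 0.80 to 1.19. Rhag was higher by 6.27, Hemgn by 6.19 and Gata1 by 5.41 on the log2 scale, and Alas2, the first enzyme of haem synthesis in red cells, by 1.15. Against wt lung, 12 of 15 and 9 of 13 were called higher, where 36.4% of all genes were called and 3959 of 18984 tested were higher. The medians were 3.91 and 2.93, beside globin log2 differences of -0.72 to 0.32. Of the genes of the membrane list, Ank1 and Tmod1 are also used in muscle. Without wt diaphragm replicate 3 the counts of listed genes higher were still 12 and 11 against trachea, with medians of 3.36 and 2.52. Against lung they were still 12 and 9, with medians of 2.96 and 1.83. Over all genes, 3010 of 19714 tested against trachea and 4092 of 19017 against lung were then called higher.

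The summed membrane genes were at 515, 474, 1350.0 and 532 TPM in wt diaphragm and 539, 309, 1891 and 1173 TPM in Hoxa5-/- diaphragm, against 149 to 192 TPM in trachea and 133 to 208 TPM in E15.5 lung. Markers of hepatocytes, the cells beside which fetal red cells form in the liver, stood high in the same libraries. All 7 genes of that list were detected in the diaphragm groups, and their summed level was 1885, 1773, 10016 and 2154 TPM in wt and 2386, 406, 12244 and 10449.9 TPM in Hoxa5-/- diaphragm, against 2.61 to 122 TPM in trachea and 4.598 to 522 TPM in E15.5 lung. Wt replicate 3 and Hoxa5-/- replicates 3 and 4, highest in hepatocyte and membrane genes, were also highest in Hbb-bs, at 14020.0, 16533 and 10306 TPM. Their Hbb-y shares were 5.27%, 3.98% and 2.001%, within the range of the other diaphragm libraries. The part of liver tissue in the diaphragm values was not tested.

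**Figure D5:**
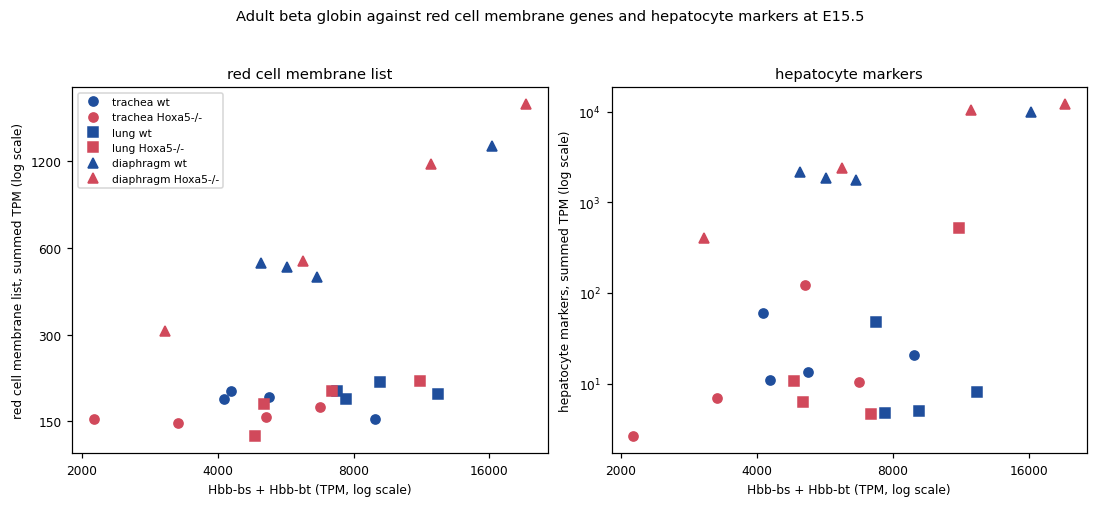
Summed TPM of the red cell membrane list and of the hepatocyte list against the summed TPM of Hbb-bs and Hbb-bt in each E15.5 library (log axes). All 8 diaphragm libraries lie above all trachea and lung libraries in membrane genes, and 7 of 8 do so in hepatocyte genes.

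Of the rows for other globins, the pseudogene Hbb-bh0, which lies between Hbb-y and Hbb-bh1, reached 999 TPM in Hoxa5-/- E12.5 lung replicate 1 and was at 165 to 253 TPM in wt E12.5 lung. It was at most 16.9 TPM at E15.5 and at 0 in all wt iBAT libraries, so that its pattern resembled the embryonic genes beside it. Hbb-bh2 reached 2.12, Hbb-bh3 1.03 and Hbq1a 3.52 TPM at most, and Hbq1b, a theta-globin gene of the alpha cluster, 24.4 TPM. Outside the clusters, myoglobin (Mb) reached 129 TPM in iBAT, cytoglobin (Cygb) lay at 1.29 to 49.8 TPM and neuroglobin (Ngb) reached 9.43 TPM. No rows were named Hbb-b1 or Hbb-b2.

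The genes most like Hbb-y in pattern over all 57 libraries, by Pearson's r of log2(TPM + 1) among 23490 genes, were Hmga2 (r = 0.970), Wnk3, Pde10a, Polr3g, Cul4b and 2610307P16Rik (r = 0.952). Hmga2, a chromatin protein gene of early development, was also the first within groups of trachea, lung and diaphragm (r = 0.841 over deviations from the group means), followed by Hspd1, 2610318N02Rik, Unc5c, Hsd3b6 and Fsd1 (r = 0.778). In E15.5 lung it was at 40.8, 35.9, 22.9 and 45.3 TPM in wt and 47.5, 58.1, 27.6 and 41.1 TPM in Hoxa5-/- libraries, with replicate 3 lowest in each, as for Hbb-y. Within groups of somites and iBAT the 6 included Sncg (r = 0.761), Sec61b, H3f3a-ps1, Idh1 and Tbca (r = 0.734).

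For the adult gene Hbb-bt, the 6 over all libraries were Cavin1 (r = 0.928), Cygb, F13a1, Ehd2, Tyrobp and Cavin2 (r = 0.904), most of them genes of vessels, connective tissue or macrophages. Within groups of trachea, lung and diaphragm they included Alas2 (r = 0.968), Zc3hav1, Ube2l6, the red cell enzyme gene Bpgm, and Tent5c (r = 0.906). Within groups of somites and iBAT they included Alas2 (r = 0.859), Bpgm, the haem synthesis gene Fech, Ube2l6 and Stk17b (r = 0.773). Alas2, Bpgm and Ube2l6 stood in both within-group lists. These values describe likeness across libraries that share stage and tissue, and no test was made of them.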

How the data were processed

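PolyA RNA-seq counts and TPM were analysed for 57 libraries. Per the labels and methods, the authors used Trim Galore 0.6.5 for trimming, STAR 2.7.9a for alignment and featureCounts 2.0.3 for the counts of each gene. The deposited tables hold whole-number counts, TPM and gene length as the authors computed them, in 1 table for trachea, lung and diaphragm and 1 for somites and iBAT, and 0 columns of per-sample values were left unused. The members and the gene lists were chosen with earlier results of these data known. Groups came from the labels. Per the methods, the libraries of a group were biological replicates, described for wt as tissues of separate embryos, and reads mapping to a single place were kept. No 2 libraries held identical values.

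Counts were fitted with edgeR 4.0.16 (glmQLFit, TMM scaling, R 4.3.3), for each comparison on its own groups, over genes with a group mean of at least 1 TPM, and p-values were adjusted over all genes tested by the Benjamini-Hochberg method. A gene was called at an adjusted p below 0.05 with a minimum fold change of 1.5 (interactions at the adjusted p alone). Shares of TPM were compared by two-sided exact permutation tests over libraries (scipy 1.17.1). DESeq2 1.42.0, other filters, scalings and units and the leaving out of each library were alternatives. The fits recovered known fold changes when tested on simulated data. Those changes were larger than any log2 genotype difference of the globins given here, and smaller ones were not simulated. Sequences were read from GRCm39, whose gene positions the report gives.

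Named genes were the 7 members, other globin rows, up to 4 called genes of each list with the largest log2 difference (the 2 of highest mean TPM where none was called), and the 6 genes most like Hbb-y and Hbb-bt. Tfrc and Slc4a1 were named by this rule, and some genes it selects are not reported here.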

Additional observations from a re-analysis of the deposited data

Results flagged for a closer look

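Each group of 4 or 5 libraries was screened with Dixon's ratio for a library far from the rest, over 14 measures and 13 groups, which gave 18 flagged values from 8 libraries among 182 tests. Chance alone flags about 1 in 20 groups. The measures of 1 library are not independent, and 8 of the 18 came from a single library.

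Hoxa5-/- E12.5 lung replicate 1 stood apart in each globin. Its levels were 90915 TPM for Hbb-y (the other 3 libraries at 11935 to 17495), 9999.6 TPM for Hbb-bh1 (1479 to 1789.8) and 25313 TPM for Hba-x (4251 to 5193). It was at 3998 TPM for Hbb-bs (432 to 694), 620.4 TPM for Hbb-bt (72.5 to 110.3), 11710 TPM for Hba-a1 (1525 to 2232) and 6713 TPM for Hba-a2 (759 to 1233.8). The 7 genes took 3.03% of its counts (0.382 to 0.510).

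In diaphragm, wt replicate 3 was at 14020 TPM for Hbb-bs (the others at 4348 to 5701), 7040 TPM for Hba-a1 (1961 to 2713) and 0.609% of counts in globins (0.176 to 0.242). Hoxa5-/- replicate 3 was at 39.6 TPM for Hbb-bh1 (10.2 to 14.6). Hoxa5-/- replicate 2, which had the lowest Hbb-bs of its group, had an Hbb-y share of 21.1% (2.001 to 3.98) and an Hba-x share of 4.88% (0.685 to 1.20).

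The remaining 4 were single measures. Wt E12.5 somites replicate 1 was at 343 TPM for Hbb-bt (the others at 468 to 479), and wt iBAT replicate 3 at 4622 TPM for Hba-a1 (2314 to 2960). Hoxa5-/- E12.5 somites replicate 2 had an Hba-x share of 24.5% (27.35 to 27.46), and replicate 1 of that group an Hba-a2 share of adult alpha TPM of 19.7% (16.5 to 17.03).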

How the results depend on the processing

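Leaving out each library in turn gave counts of called members of 0 to 3 for genotype in E10.5 somites, 3 to 7 for stage in Hoxa5-/- lung, 2 to 4 for lung against trachea, 0 to 2 for diaphragm against trachea and 0 to 3 for the somite interaction, and 0 to 9 passing stage share tests, since 4 against 3 libraries cannot reach the threshold. DESeq2 called 2 members for stage in Hoxa5-/- lung. Replicate numbers did not pair the samples by the criterion used, since in no comparison did every pair correlate over 0.1 (lowest pair 0.0967 for wt lung and trachea, where 4 of 4 libraries correlated best with their own number). With the replicate block, 7 members were called for lung against trachea, 4 for diaphragm against trachea, and 0 stage share tests passed. The share test with the block flips the signs of paired differences, and so few pairs cannot reach the threshold, whatever the shares. In iBAT the sample names share leading numbers across genotypes, whose meaning the labels do not give, 4 of 5 libraries correlated best with their own number, and 0 members were called with the block.

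The log2 difference of Hba-a1 between stages of Hoxa5-/- lung reversed to 0.049 with the replicate block and ran from -0.94 to 0.73 without single libraries, and that of Hba-a2 was 0.62 and ran from -0.43 to 1.33. Without single libraries, Hbb-y by genotype ran from -0.21 to 1.39 in E12.5 lung, Hbb-bs from -0.22 to 0.79 in diaphragm and from -0.085 to 0.11 in E12.5 somites, and the Hbb-y share in diaphragm from -0.67 to 5.70 percentage points. Hbb-bs in E10.5 somites was 0.017 with the block. On the log2 ratio of Hbb-y to adult beta TPM the sign turned in E12.5 lung by genotype (-0.28) and over the somite stages (-5.67 in wt, -5.07 in Hoxa5-/-), since the share's denominator also holds Hbb-bh1. The cause of the other reversals was not tested. With a library left out, 206 counts kept within 1.5 times and 37 did not, and among single values 396 kept direction and side of the threshold, 98 became weaker, 3 stronger and 7 reversed. Under the other alternatives these were 103 and 4, and 342, 10, 1 and 6. The weaker values include the passing stage share tests with a library left out or with the block, which cannot reach the threshold at these group sizes. That part of the tally was fixed in advance and does not measure sensitivity. Counts per unshared window were chosen as an alternative after seeing the data.

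Calls over all genes rose with DESeq2 from 3 to 52 in trachea, 14 to 81 in E12.5 lung, 22 to 83 in E15.5 lung, 107 to 406 in diaphragm, 4 to 18 in E10.5 somites, 1 to 2 in E12.5 somites and 1 to 4 in iBAT, and from 5 to 18 and 3 to 17 in the interactions. With the block they were 1, 4, 104, 358, 0, 2 and 2. Without a fold minimum they were 9107 against 4466 in wt lung, 6559 against 3633 in Hoxa5-/- lung, 11756 against 7238 in Hoxa5-/- somites, and 9584 against 5838, 9669 against 6412 and 11138 against 6915 in the tissue comparisons of lung and trachea, diaphragm and trachea, and diaphragm and lung. Adult beta globins in E10.5 somites rested on few counts, and 4 libraries a group, with several-fold spread at E15.5, limit what the genotype comparisons can show.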
